A study of Mus musculus with 12 samples.

Results

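*Osr1*, *Pax2*, *Pax8*, *Wt1*, *Lhx1*, *Foxf1*, *Tcf21*, *Tbx18* and *Tbx3* are 9 mouse transcription factor genes known from the intermediate and lateral plate mesoderm. They were listed by symbol, each symbol named a single gene, and they were followed among the 55141 genes of the count table. The genes were selected on measured values of these same libraries, their levels in the 4 groups, and how much each value weighed in the choice is not recorded. The fold changes and adjusted p-values of the 9 genes are therefore given as a description, and nothing is supported with how many of them passed a threshold.

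Gastruloids are embryo-like aggregates grown from mouse embryonic stem cells, which lengthen along one axis and form cells of all 3 germ layers. All of them here were made from 300 cells of a 129/SVEV line, received a 24 h pulse of 3 µM CHIR99021, an activator of Wnt signalling, starting 48 h after seeding, and were harvested at 120 h. They were embedded in a dextran-PEG hydrogel of 1.0 mM, or of 1.5 mM for a stiffer gel, at 72 h or at 96 h after seeding, and were released with dextranase at harvest. This gave 4 groups: 72 h and 96 h in the 1.0 mM gels, and 72 h and 96 h in the 1.5 mM gels. Each group had 3 biological replicates of about 30 pooled gastruloids. All 12 libraries came from embedded gastruloids of the same cell line, so the comparisons are between times and gels and not with gastruloids grown without a gel. Gastruloids embedded at 72 h spent longer in the gel by harvest.

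During gastrulation the mesoderm is laid out from the midline outwards as axial, paraxial, intermediate and lateral plate mesoderm. The intermediate mesoderm is a narrow strip that forms the kidney and gonads, and *Osr1*, *Lhx1*, *Pax2* and *Pax8* are its classical regulators. The lateral plate splits into a somatic layer, which forms the limb buds and body wall, and a splanchnic layer, which forms the heart and the wall of the gut; *Foxf1* is a splanchnic regulator. *Tcf21*, *Wt1* and *Tbx18* mark the mesothelium and epicardium that grow from it. Several of the 9 genes have other sites of expression: *Lhx1* in the primitive streak, node and anterior endoderm, *Tbx18* in the anterior part of each somite, and *Tbx3* in limb buds, heart and naive pluripotent cells.

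The libraries held 23011791 to 27609422 counts, and mitochondrial genes took 1.68% to 3.02% of them. One gene, *CT010467.1*, took 6.12% of the counts in replicate 1 of the 72 h, 1.5 mM group and 4.21% in replicate 2 of the 96 h, 1.5 mM group. Levels below are CPM, counts divided by library sizes that were scaled by the TMM method. FPKM values, which divide by transcript length, are used to compare one gene with another, in an alternative fit and beside the counts of *Tcf21*. A gene was called differentially expressed (DE) when its adjusted p in edgeR, fitted without replicate number, was below 0.05 and its absolute log2 fold change above 1.

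By the DE calls of edgeR, some of the 9 genes differed between embedding times, and none was called between gels in these fits without replicate number. *Lhx1* was higher after embedding at 72 h, and *Tbx18* was higher after embedding at 96 h, and both were DE in either gel. *Tcf21* and *Tbx3* were DE in 1.0 mM gels, higher at 72 h, while *Foxf1* passed there on adjusted p but not on fold change. None of these 3 was DE in 1.5 mM gels, and for none did the interaction of time and gel pass, at an adjusted p of 0.953 for each in edgeR. The largest difference between gels among the 9 genes was that of *Tbx3* at 96 h, 3.56-fold higher in 1.5 mM gels with no overlap of replicates, and at an adjusted p of 0.122 it was not DE. With replicate number as a block, edgeR called *Tbx3* there, among 51 of all genes in place of 0. *Pax8* was higher at 96 h, at 3 to 25 counts per library. *Osr1* and *Pax2* were DE in none of the 7 comparisons.

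With the 1.0 mM gel, 8 of the 9 genes passed the filter on low counts and 5 were DE between embedding times, 3 higher at 72 h and 2 lower. *Pax8*, among the lower genes, passed that filter only through its 96 h libraries. Of all 15763 genes tested there, 4.30% were DE, 2.61% higher and 1.69% lower. The 3 replicates of the times did not overlap for 7 of the 9 genes, 4 higher and 3 lower at 72 h, and they did not overlap for 28.0% of all genes tested. The 7 include *Wt1*, which was not tested there. With the 1.5 mM gel all 9 genes were tested and 2 were DE, 1 in each direction, against 3.18% of all 15683 genes tested, 1.61% higher and 1.57% lower, and 4 of the 9 did not overlap, against 39.5% of all. Across both gels 4 of the 9 were DE, 1 higher and 3 lower at 72 h, against 4.66% of 16388 genes, 2.36% higher and 2.29% lower. With limma-trend on log2(1 + FPKM), *Lhx1* and *Tbx18* were called in 1.0 mM gels and across both gels and 0 of the 9 in 1.5 mM gels. That fit called 63, 123 and 54 of all genes in the same order, against 678, 763 and 498 in edgeR. With 1 added to each value, *Pax8* and *Wt1*, at most 0.260 and 0.248 FPKM, could not reach a log2 fold change of 1. The 3 comparisons of embedding time draw on the same libraries, and each is given with its own values.

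**Figure D1:**
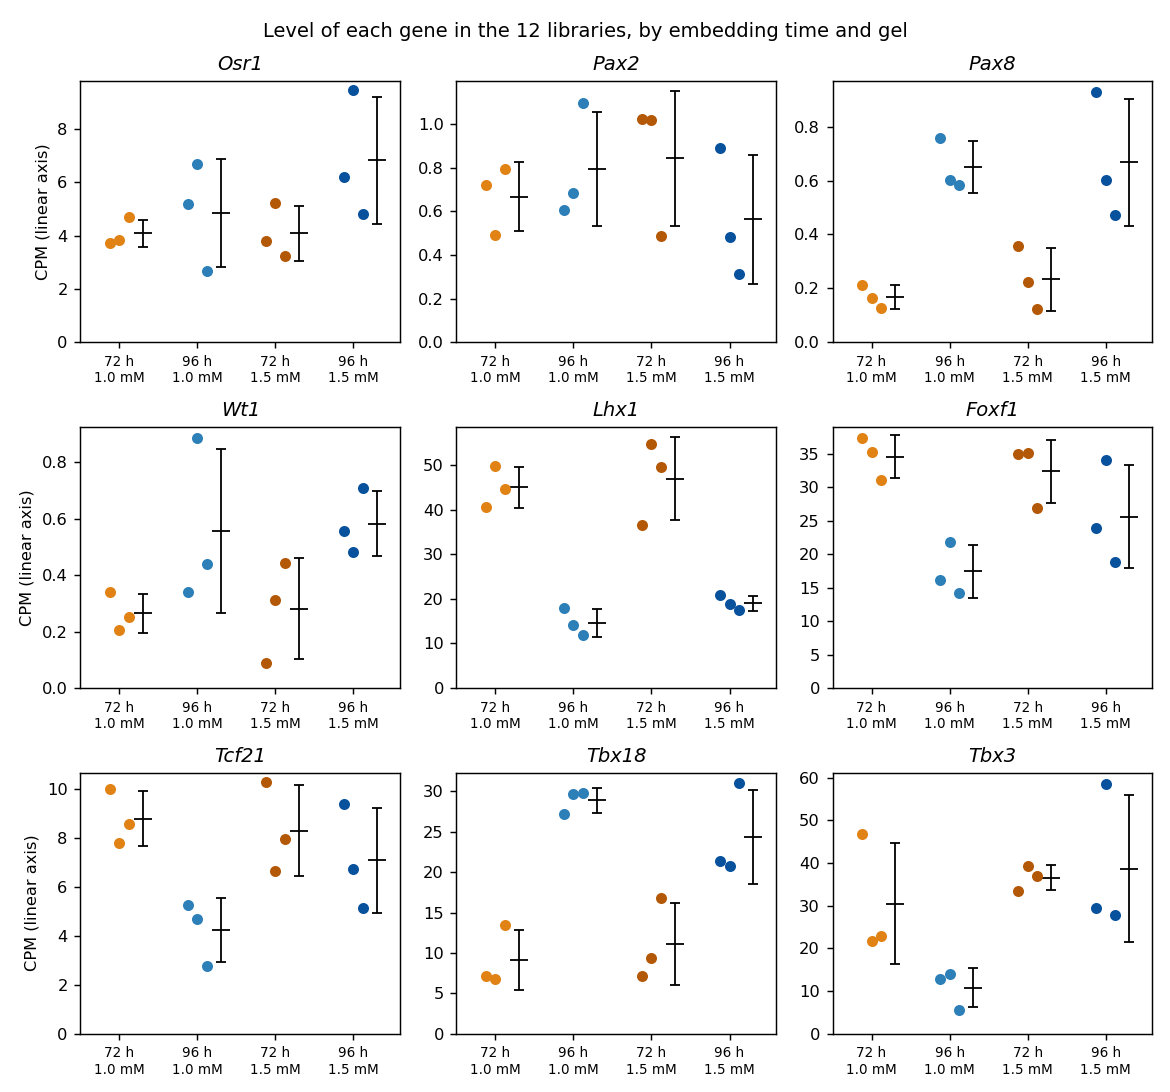
Level of each of the 9 genes in CPM (linear axis from 0, a scale of its own in each panel) in the 12 libraries, with the 4 groups of embedding time and gel along the horizontal axis. Coloured points are the 3 replicates of a group in the order 1 to 3 and black bars the mean ± SD; the points of *Lhx1* at 72 h, from 36.5 to 54.7 CPM, all lie above those at 96 h, from 11.8 to 20.8 CPM, and those of *Tbx18* lie the other way round.

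**Figure D2:**
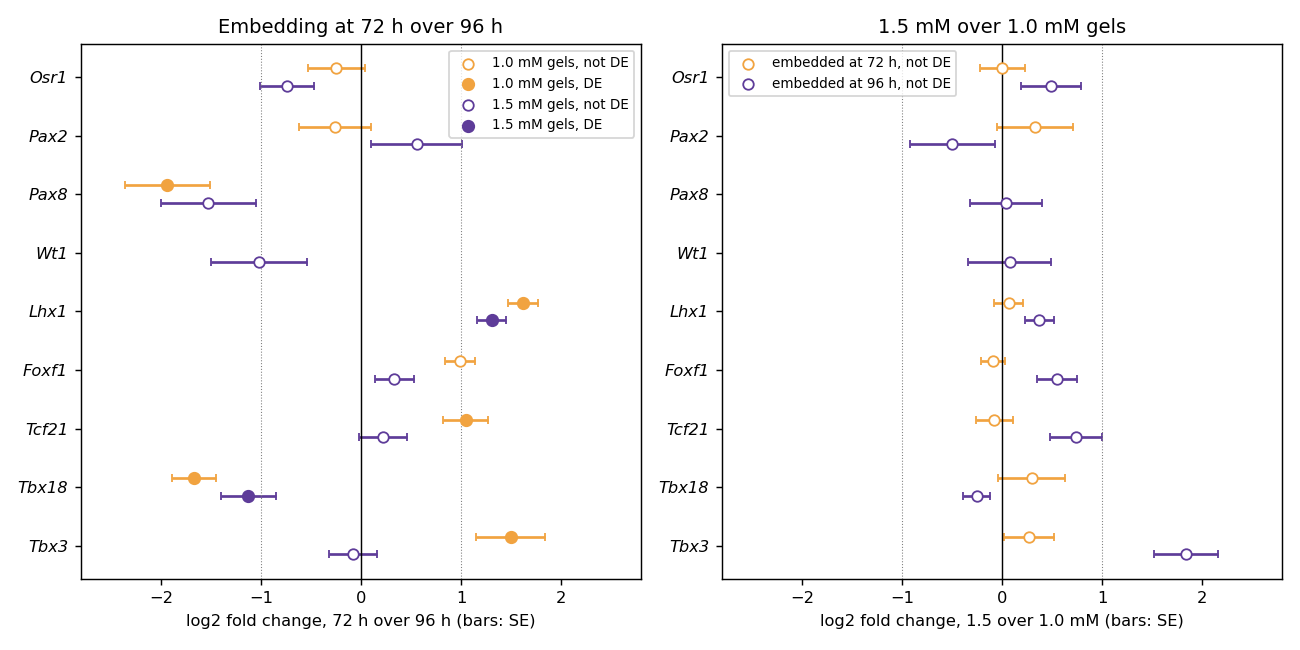
Log2 fold change of each gene, 72 h over 96 h on the left and 1.5 mM over 1.0 mM gels on the right, with bars of 1 SE from edgeR; filled points were DE, open points were not, dotted lines mark log2 fold changes of -1 and 1, and a gene with no point did not pass the filter on low counts. *Lhx1* and *Tbx18* have filled points in both gels on the left, and no point is filled on the right, where *Tbx3* at 96 h lies farthest from 0 at 1.83.

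Per transcript length, *Foxf1* had the highest level of the 9 genes in all 4 groups, with mean FPKM values of 11.0 ± 1.15 and 5.61 ± 1.23 (SD, n = 3) at 72 h and 96 h in 1.0 mM gels and of 10.1 ± 1.26 and 7.89 ± 1.97 (SD, n = 3) in 1.5 mM gels. In the 72 h, 1.0 mM group, *Lhx1* came next at 8.06 FPKM and its replicates lay below those of *Foxf1*. In the other 3 groups the replicates of *Foxf1* overlapped those of the gene ranked next to it, *Tbx18* at 96 h in 1.0 mM gels, *Lhx1* at 72 h in the 1.5 mM gels and *Tbx3* at 96 h in 1.5 mM gels. *Pax2*, *Pax8* and *Wt1* took the 3 lowest places in every group, with mean FPKM values of at most 0.204, and could not be placed among themselves, since neighbours in that order overlapped.

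*Pax2* and *Pax8* together define the nephric lineage of the intermediate mesoderm. The highest level of *Pax2* in any library was 1.10 CPM and that of *Pax8* 0.929 CPM, so the defining markers of that lineage were close to the floor of detection in all 12 libraries. *Wt1*, a defining marker of the mesothelium, reached 0.886 CPM at most. The 9 genes are therefore treated by their symbols, and not as a reading of intermediate mesoderm or mesothelium in these gastruloids. In RNA from whole gastruloids, fewer cells of a type and less RNA per cell cannot be told apart.

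*Lhx1* (ENSMUSG00000018698, mm10 chr11:84518284-84525535, minus strand) encodes a LIM homeodomain factor needed for the head organizer in the streak and node and for the nephric duct in the intermediate mesoderm. *Tbx18* (ENSMUSG00000032419, chr9:87702800-87731260, minus strand) encodes a T-box factor of the anterior part of the somites, epicardium and the mesenchyme of the ureter. Because these were the 2 genes DE between embedding times in both gels, in opposite directions, the 250 bases upstream of their RefSeq start sites are shown, from the table of promoters of build GRCm38.p6. They are written 5′ to 3′ on the strand of the gene, chr11:84525535-84525784 for *Lhx1* and chr9:87731261-87731510 for *Tbx18*. Capitals mark the one match to a CCAAT box, which lies on the opposite strand and so is read here in reverse complement.
Lhx1 promoter: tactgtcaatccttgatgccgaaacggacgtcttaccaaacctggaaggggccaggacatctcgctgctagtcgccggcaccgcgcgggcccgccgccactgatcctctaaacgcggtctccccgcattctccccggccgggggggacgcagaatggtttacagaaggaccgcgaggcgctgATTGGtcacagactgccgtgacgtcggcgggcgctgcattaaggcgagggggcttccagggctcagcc
Tbx18 promoter: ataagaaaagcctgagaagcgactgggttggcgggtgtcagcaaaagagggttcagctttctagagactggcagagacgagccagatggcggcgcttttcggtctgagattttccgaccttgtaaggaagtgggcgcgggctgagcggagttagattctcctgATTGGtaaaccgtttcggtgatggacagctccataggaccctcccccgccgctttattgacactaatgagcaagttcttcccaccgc

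Both windows held a single CCAAT match, 68 bases before the start site in *Lhx1* and 87 bases before it in *Tbx18*. Of 32851 promoter windows in the table, 33.8% held such a match on either strand of the same 250 bases. GC content was 64.8% in *Lhx1*, with 26 CpG dinucleotides, and 54.0% in *Tbx18*, with 15. Neither window held a TATA box, searched as TATAAA on both strands and found in 12.4% of windows. A T-box site, searched as GGTGTGA, was in neither of the pair and in 3.33% of all windows. The homeodomain core TAATTA was likewise in neither, and in 4.84% of all windows. The E-box letters CAGCTG, in 13.0% of all windows, were not found in them, nor was the TEAD site GGAATG, which 12.6% of all windows held. Windows were found for 5 of the 9 genes, the others being *Pax2*, *Pax8* and *Tcf21*. A match or its absence is a property of these letters only.

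*Lhx1* stood at 40.6, 49.8 and 44.6 CPM in replicates 1 to 3 of the 72 h, 1.0 mM group and at 17.9, 14.1 and 11.8 CPM in the 96 h, 1.0 mM group. Levels in 1.5 mM gels were 36.5, 54.7 and 49.6 CPM at 72 h and 20.8, 18.8 and 17.4 CPM at 96 h. Every library embedded at 72 h was above every library embedded at 96 h, in either gel. The log2 fold change, 72 h over 96 h, was 1.62 ± 0.15 (SE) in 1.0 mM gels with an adjusted p of 0.000134 in edgeR, which is a 3.08-fold difference. At 1.5 mM it was 1.30 ± 0.14 (SE) with an adjusted p of 0.00149. Left-out libraries ended neither call. The interaction of time and gel was -0.31 ± 0.22 (SE) with an unadjusted p of 0.194 in edgeR, so the size of the *Lhx1* difference was not separated between gels.

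The long non-coding RNA *Lhx1os*, which is transcribed next to *Lhx1* from the opposite strand, was DE in the same direction in 1.0 mM gels, with a log2 fold change of 1.19 ± 0.28 (SE) and an adjusted p of 0.0238. Within 1.5 mM gels its value was 0.71 ± 0.23 (SE) and the adjusted p 0.0564. Among 11 genes of the node and anterior endoderm, where *Lhx1* is also expressed, 1 was DE in 1.0 mM gels and 3 in 1.5 mM gels, all higher at 72 h. Of all genes tested, 2.61% were DE higher at 72 h in 1.0 mM gels and 1.61% in 1.5 mM gels. The DE genes of the list were *Shh*, a signal of the node and floor plate, in both gels. In 1.5 mM gels they also included *Cer1*, a secreted inhibitor of Nodal, BMP and Wnt, and *Noto*, a node factor. *Cer1* ranged from 44.8 to 158 CPM in the 72 h, 1.5 mM group. In each gel 8 of the 11 had a log2 fold change above 0, with medians of 0.49 at 1.0 mM and 0.62 at 1.5 mM. Mean levels of *Gsc*, *Sox17* and *Epcam* were lower at 72 h in both gels. At 1.5 mM, 1 listed gene passed on adjusted p as lower at 72 h. The summed level of the node and anterior endoderm list was 335 to 407 CPM at 72 h and 254 to 299 CPM at 96 h in 1.0 mM gels, and 315 to 474 CPM and 210 to 271 CPM in 1.5 mM gels, with no listed gene at 0 in every library. Its part in the *Lhx1* difference was not tested. The 3 genes whose profile over the 12 libraries was most like that of *Lhx1* were *Slc7a8*, *Foxh1* and *Cfap54*, with root-mean-square differences of 0.244, 0.245 and 0.250 in centred log2 CPM, among 13805 genes with a mean of at least 1 CPM.

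*Osr1* (ENSMUSG00000048387, chr12:9570116-9581500, plus strand) encodes a zinc finger factor, among the earliest of the intermediate mesoderm and also present in the lateral plate. It stood at 3.73, 3.84 and 4.68 CPM at 72 h and at 5.20, 6.68 and 2.67 CPM at 96 h in 1.0 mM gels. The libraries of 1.5 mM gels stood at 3.79, 5.24 and 3.23 CPM at 72 h and at 6.20, 9.46 and 4.79 CPM at 96 h. The times overlapped in both gels, through replicate 3 at 96 h in 1.0 mM gels and replicate 2 at 72 h in the 1.5 mM gels. The log2 fold change, 72 h over 96 h, was -0.25 ± 0.29 (SE) in 1.0 mM gels and -0.74 ± 0.27 (SE) in 1.5 mM gels, with adjusted p-values of 0.658 and 0.0824. Without replicate 2 at 96 h in 1.0 mM gels the first of these was 0.05.

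*Pax2* (ENSMUSG00000004231, chr19:44756045-44837871, plus strand) and *Pax8* (ENSMUSG00000026976, chr2:24420560-24475599, minus strand) encode paired-box factors that act together in the forming kidney. *Pax2* lay between 0.491 and 0.793 CPM at 72 h and between 0.607 and 1.10 CPM at 96 h in 1.0 mM gels, and between 0.485 and 1.03 CPM and between 0.314 and 0.892 CPM in 1.5 mM gels. These are 8 to 30 counts per library, and all 4 groups overlapped. Its log2 fold change, 72 h over 96 h, was -0.26 ± 0.36 (SE) in 1.0 mM gels and 0.56 ± 0.45 (SE) in 1.5 mM gels, and the first was 0.04 without replicate 3 at 96 h.

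*Pax8* stood at 0.212, 0.164 and 0.125 CPM at 72 h and at 0.759, 0.604 and 0.584 CPM at 96 h in 1.0 mM gels. For 1.5 mM gels the levels were 0.357, 0.222 and 0.121 CPM at 72 h and 0.929, 0.604 and 0.471 CPM at 96 h. Behind these levels are 3 to 8 counts at 72 h and 12 to 25 at 96 h, and the times did not overlap in either gel. *Pax8* passed the filter on low counts only through its 96 h libraries, and did not pass it between gels at 72 h. In 1.0 mM gels *Pax8* was lower at 72 h with a log2 fold change of -1.93 ± 0.42 (SE) and an adjusted p of 0.0150. The adjusted p was 0.0573 without replicate 3 at 72 h, 0.0604 without replicate 1 at 96 h and 0.0673 in DESeq2, so the call depended on these choices. In the stiffer 1.5 mM gels the log2 fold change was -1.52 ± 0.47 (SE) with an adjusted p of 0.0509, and it was called without replicate 1 at 72 h, at an adjusted p of 0.0285 and a log2 fold change of -1.96. Upper quartile normalization, a fit with no filter on low counts and a fit of all 12 libraries called it as well. Across both gels *Pax8* was DE at -1.72 ± 0.31 (SE) with an adjusted p of 0.00079.

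Of 21 other genes of the intermediate mesoderm and urogenital system, 19 were tested. At 1.0 mM 0 were DE higher at 72 h and 3 lower, against 2.61% and 1.69% of all genes tested. Among the 3 were *Sim1*, a factor of the intermediate mesoderm, somite and nervous system, and *Ret*, the receptor of the ureteric bud, at -1.80 and -1.11 on the log2 scale. For 1.5 mM gels 2 were DE higher, *Emx2* at 1.35 and *Lhx9* at 1.27, both factors of the urogenital ridge, and 0 lower, against 1.61% and 1.57% of all genes tested. Across both gels 4 of the 19 were DE, against 4.66% of all genes tested, and they included *Wnt9b*, a ligand of the nephric duct, at 1.38, *Lhx9* at 1.08 and *Sim1* at -1.38. *Lhx9* and *Wnt9b* are lowly expressed here, with group means of at most 1.70 CPM, while *Sim1* had group means from 7.62 to 26.5 CPM. The median log2 fold change of the 19 was 0.25 in 1.0 mM gels and -0.17 in 1.5 mM gels, and that of all genes tested was -0.01 in both.

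*Foxf1* (ENSMUSG00000042812, chr8:121084386-121088144, plus strand) encodes a forkhead factor that acts downstream of Hedgehog and BMP signals in the splanchnic mesoderm. It stood at 37.5, 35.3 and 31.1 CPM at 72 h and at 16.2, 21.9 and 14.2 CPM at 96 h in 1.0 mM gels. At 1.5 mM it stood at 35.1, 35.1 and 27.0 CPM at 72 h and at 24.0, 34.1 and 18.9 CPM at 96 h. The times were apart in 1.0 mM gels and overlapped in 1.5 mM gels, where replicate 2 at 96 h was at the level of the 72 h libraries. With the 1.0 mM gel the log2 fold change, 72 h over 96 h, was 0.99 ± 0.15 (SE) with an adjusted p of 0.00242, which passed the threshold on p and fell just short of that on fold change. limma-voom called it. It was 1.06 without replicate 3 at 72 h and 1.18 without replicate 2 at 96 h, and was then DE. With the 1.5 mM gel it was 0.33 ± 0.19 (SE) with an adjusted p of 0.252. *Fendrr*, the long non-coding RNA that starts next to *Foxf1* on the opposite strand, was DE in 1.0 mM gels at 1.33 ± 0.37 (SE) with an adjusted p of 0.0433, and stood at 0.51 ± 0.31 (SE) in 1.5 mM gels.

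*Tcf21* (ENSMUSG00000045680, chr10:22817281-22820174, minus strand) encodes a basic helix-loop-helix factor of epicardial, lung, kidney and gonadal mesenchyme. It stood at 10.0, 7.81 and 8.56 CPM at 72 h and at 5.28, 4.71 and 2.78 CPM at 96 h in 1.0 mM gels. With the 1.5 mM gel it stood at 10.3, 6.66 and 7.96 CPM at 72 h and at 9.40, 6.72 and 5.15 CPM at 96 h. As with *Foxf1*, the times were apart in 1.0 mM gels and overlapped in 1.5 mM gels. *Tcf21* was DE in 1.0 mM gels, with a log2 fold change of 1.05 ± 0.23 (SE) and an adjusted p of 0.0146. The value was 0.94 without replicate 1 at 72 h and 0.81 without replicate 3 at 96 h, and the gene was then not DE. At 1.5 mM the log2 fold change was 0.22 ± 0.24 (SE) with an adjusted p of 0.544. The profiles most like that of *Tcf21* were those of *Zcchc12*, *Smad9* and *Ptpre*, with root-mean-square differences of 0.172, 0.191 and 0.202. An antisense gene, *Gm10824*, overlaps *Tcf21* and had 5 to 42 counts per library, against 76 to 253 for *Tcf21*. The strand setting of the counting is not stated, so reads of the 2 strands cannot be told apart in the counts. The FPKM values were computed by the authors with a strand-specific library setting. Their means for *Tcf21* were 5.10 and 2.53 at 72 h and 96 h in 1.0 mM gels and 4.75 and 4.08 in 1.5 mM gels.

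*Wt1* (ENSMUSG00000016458, chr2:105126529-105173616, plus strand) encodes a zinc finger factor of the mesothelium, kidney and gonad. It lay between 0.204 and 0.339 CPM at 72 h and between 0.342 and 0.886 CPM at 96 h in 1.0 mM gels, and between 0.0891 and 0.444 CPM and between 0.483 and 0.707 CPM in 1.5 mM gels. These are 2 to 22 counts per library, and the times did not overlap in either gel. *Wt1* passed the filter on low counts mainly through 96 h libraries, and did not pass it between gels at 72 h. *Wt1* did not pass the filter on low counts in 1.0 mM gels and was not DE in 1.5 mM gels, at -1.02 ± 0.48 (SE) with an adjusted p of 0.166. Across both gels it was DE, lower at 72 h, at -1.03 ± 0.34 (SE) with an adjusted p of 0.0323. That call ended when any of 5 libraries was left out: replicate 2 or 3 at 72 h in 1.0 mM gels, replicate 2 at 96 h in 1.0 mM gels, replicate 1 at 72 h in the 1.5 mM gels and replicate 3 at 96 h in 1.5 mM gels, with adjusted p-values from 0.0574 to 0.0883.

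Of 11 other genes of the mesothelium and epicardium, 8 were tested in 1.0 mM gels and 2 were DE, both higher at 72 h. They were *Lrrn4*, a mesothelial membrane protein, at 1.57 and *Podxl*, a sialomucin of podocytes, mesothelium and pluripotent cells, at 1.39. Within 1.5 mM gels 7 were tested and *Podxl* alone was DE, at 1.20. The shares of all genes tested that were DE higher at 72 h were 2.61% in 1.0 mM gels and 1.61% in 1.5 mM gels. *Podxl* had group means of 399 and 152 CPM at 72 h and 96 h in 1.0 mM gels and of 335 and 145 CPM in 1.5 mM gels, where the summed level of the list had means of 568, 319, 516 and 294 CPM in the same order. The median log2 fold change of the list was 0.07 in 1.0 mM gels and 0.47 in 1.5 mM gels.

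*Tbx18* stood at 7.13, 6.79 and 13.4 CPM at 72 h and at 27.1, 29.7 and 29.8 CPM at 96 h in 1.0 mM gels. Levels in 1.5 mM gels were 7.18, 9.41 and 16.8 CPM at 72 h and 21.3, 20.7 and 31.0 CPM at 96 h. Every library embedded at 96 h was above every library embedded at 72 h, and in both gels replicate 3 was the highest of the 72 h libraries. In 1.0 mM gels the log2 fold change, 72 h over 96 h, was -1.67 ± 0.22 (SE) with an adjusted p of 0.00106, a 3.18-fold difference. In the stiffer 1.5 mM gels it was -1.12 ± 0.28 (SE) with an adjusted p of 0.0232, and the call ended without replicate 1 at 72 h, at -0.89, without replicate 2 at 72 h, at -1.01 and an adjusted p of 0.0745, or without replicate 3 at 96 h, at -0.92. A gene on the opposite strand, *D030062O11Rik*, overlaps *Tbx18* and had 9 to 62 counts, against 161 to 816 for *Tbx18*.

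The direction of *Tbx18* was that of the paraxial mesoderm list and the opposite of that of *Tcf21* in 1.0 mM gels. Of 11 genes of the paraxial mesoderm and somite tested, 7 were DE in 1.0 mM gels and 4 in 1.5 mM gels, all lower at 72 h. The shares of all genes tested that were DE lower were 1.69% and 1.57%. *Meox2* had log2 fold changes of -3.79 and -3.48 in the 2 gels, *Tbx22* of -3.34 and -1.87, *Meox1* of -2.03 and -1.42 and *Pax1* of -1.41 and -1.54; the *Meox* genes and *Pax1* are factors of the somite and its sclerotome. The summed level of the 12 listed genes was 294 to 506 CPM at 72 h and 836 to 942 CPM at 96 h in 1.0 mM gels, and 362 to 533 CPM and 675 to 878 CPM in 1.5 mM gels, with no listed gene at 0 in every library. Their part in the *Tbx18* difference was not tested. The profiles most like that of *Tbx18* over the 12 libraries were those of *Cd36*, *Rasl11b* and *Foxd2*, with root-mean-square differences of 0.173, 0.199 and 0.223.

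*Tbx3* (ENSMUSG00000018604, chr5:119670669-119684724, plus strand) encodes a T-box repressor, close to *Tbx2* in sequence and often expressed with it. It stood at 46.8, 21.6 and 23.0 CPM at 72 h and at 12.9, 13.9 and 5.59 CPM at 96 h in 1.0 mM gels. The libraries of 1.5 mM gels stood at 33.4, 39.4 and 36.9 CPM at 72 h and at 29.5, 58.5 and 27.9 CPM at 96 h. The 3 libraries of the 96 h, 1.0 mM group were thus below the other 9, which ranged from 21.6 to 58.5 CPM and overlapped between their groups. At 1.0 mM *Tbx3* was DE, higher at 72 h, with a log2 fold change of 1.49 ± 0.34 (SE) and an adjusted p of 0.0187. Without replicate 3 at 96 h it was 1.18 with an adjusted p of 0.0513. For 1.5 mM gels the log2 fold change was -0.08 ± 0.24 (SE) with an adjusted p of 0.843, and it was 0.35 without replicate 2 at 96 h, the library with 4.21% of its counts in *CT010467.1*. An antisense gene, *Tbx3os1*, overlaps *Tbx3* and had 6 to 44 counts, against 153 to 1454 for *Tbx3*.

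Between gels, 0 of the 7 genes tested at 72 h were DE in edgeR, against 0% of all 15563 genes. None of the 7 had an unadjusted p below 0.05, against 6.90% of all genes, DESeq2 and limma-voom called none either, and their log2 fold changes, 1.5 mM over 1.0 mM, ran from -0.09 to 0.33. The gels overlapped for all 9 genes, including *Pax8* and *Wt1*, which were not tested there. Of all genes tested, the gels did not overlap for 11.0%. At 96 h, 0 of the 9 genes were DE in edgeR, against 0% of all 15861 genes, and 4 had an unadjusted p below 0.05, against 9.95% of all. These 4 were higher in 1.5 mM gels: *Tbx3* at 1.83 ± 0.32 (SE), *Tcf21* at 0.73 ± 0.26 (SE), *Foxf1* at 0.55 ± 0.20 (SE) and *Lhx1* at 0.37 ± 0.14 (SE), with adjusted p-values of 0.122, 0.393, 0.409 and 0.448. The gels did not overlap at 96 h for 1 of the 9 genes, *Tbx3*, and for 15.1% of all genes.

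*Tbx3* had the 12th lowest p of all genes in that comparison, at 3.56-fold, and whether it was called depended on the analysis. DESeq2 called it at an adjusted p of 0.0471, and at its default filtering level gave 0.0548. limma-voom called none of the 9. In edgeR *Tbx3* was called without replicate 1 of the 96 h, 1.5 mM group, at an adjusted p of 0.0449, and without replicate 3 of that group, at 0.0326, and also with no filter on low counts. A fit with replicate number as a block called *Tbx3* as well, among 51 of all genes in place of 0. Across both embedding times its log2 fold change was 1.02 ± 0.32 (SE) with an adjusted p of 0.210, and 0 of the 9 genes were DE, against 0.00610% of all genes. In that comparison *Tbx3* alone of the 9 had an unadjusted p below 0.05, against 12.7% of all genes, and DESeq2 and limma-voom called none.

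For the interaction of embedding time and gel, 0 of the 9 genes and 0% of 16388 genes were DE in edgeR, and DESeq2 and limma-voom called none of the 9. An unadjusted p below 0.05 was given for 3 of the 9, against 4.32% of all genes. These were *Tbx3* at -1.56 ± 0.49 (SE), *Tcf21* at -0.81 ± 0.35 (SE) and *Foxf1* at -0.64 ± 0.27 (SE), with an adjusted p of 0.953 for each. All 3 were higher at 72 h in 1.0 mM gels. For these genes a negative value means a smaller difference between 72 h and 96 h in 1.5 mM gels than in 1.0 mM gels. The smaller differences of these 3 genes in 1.5 mM gels were therefore not separated from those in 1.0 mM gels once all genes were accounted for.

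The genes whose profile was most like that of *Tbx3* were *Msx1*, *Smad7* and *Tbx2*, with root-mean-square differences of 0.216, 0.370 and 0.468. *Msx1*, a homeobox gene that responds to BMP signals, stood at 17.7, 20.9 and 5.59 CPM at 96 h in 1.0 mM gels and at 36.7, 90.2 and 33.3 CPM at 96 h in 1.5 mM gels. *Smad7*, an inhibitor of TGF-β and BMP signalling, stood at 31.1, 25.7 and 17.5 CPM and at 45.8, 90.0 and 41.6 CPM in the same groups. Both were highest of all 12 libraries in replicate 2 of the 96 h, 1.5 mM group and lowest in replicate 3 of the 96 h, 1.0 mM group, as *Tbx3* was. *Osr1* had its highest and lowest levels in these same libraries.

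**Figure D3:**
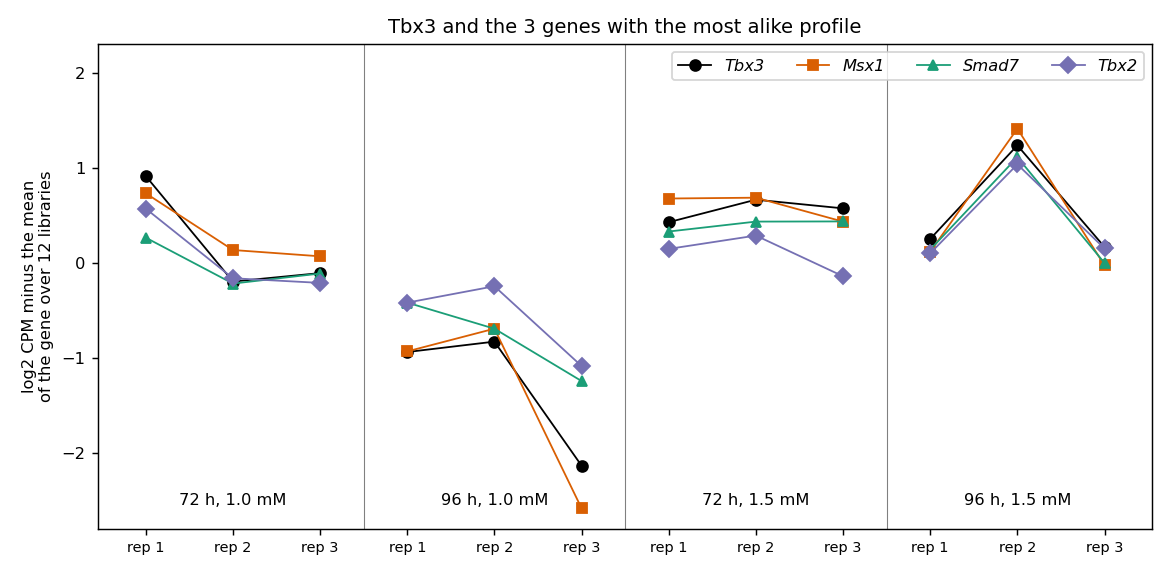
Profiles of *Tbx3* and of the 3 genes most like it, as log2 CPM minus the mean of the gene over the 12 libraries, with the libraries along the horizontal axis by group and replicate; lines join the replicates of a group and carry no order. All 4 genes are lowest in replicate 3 of the 96 h, 1.0 mM group and highest in replicate 2 of the 96 h, 1.5 mM group, where *Tbx3* stood at 5.59 and 58.5 CPM.

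Genes of the lateral plate mesoderm were listed apart from the 9, and 23 of 24 were tested between embedding times. With the 1.0 mM gel 13 were DE higher at 72 h and 2 lower, against 2.61% and 1.69% of all genes tested. Their median log2 fold change was 1.45. With the 1.5 mM gel 4 were DE higher and 1 lower, against 1.61% and 1.57% of all, with a median of 0.45. *Wnt2*, a ligand of the splanchnic mesoderm, had log2 fold changes of 2.83 and 1.40 in the 2 gels, and *Tbx20*, *Tbx5* and *Gata4*, factors of the heart field, of 2.82 and 1.40, 2.75 and 1.47, and 2.57 and 1.36. *Tbx5* was not DE in 1.5 mM gels. The 2 DE genes that were lower at 72 h in 1.0 mM gels included *Nr2f2* at -1.27. The summed level of the 24 genes was 1104 to 1485 CPM at 72 h and 676 to 849 CPM at 96 h in 1.0 mM gels, and 1067 to 1378 CPM and 897 to 1230 CPM in 1.5 mM gels.

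Between gels at 96 h, 0 of these 24 genes were DE in edgeR, DESeq2 or limma-voom. In edgeR 11 had an unadjusted p below 0.05, against 9.95% of all genes, and all 11 were higher in 1.5 mM gels. Among them *Msx1* stood at 1.85 ± 0.42 (SE) and *Tbx2* at 1.04 ± 0.26 (SE), with adjusted p-values of 0.189 and 0.223. The median of the list was 0.71. Of the 23 genes tested for the interaction, 11 had an unadjusted p below 0.05, against 4.32% of all genes, and 0 were DE in any of the 3 tools.

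**Figure D4:**
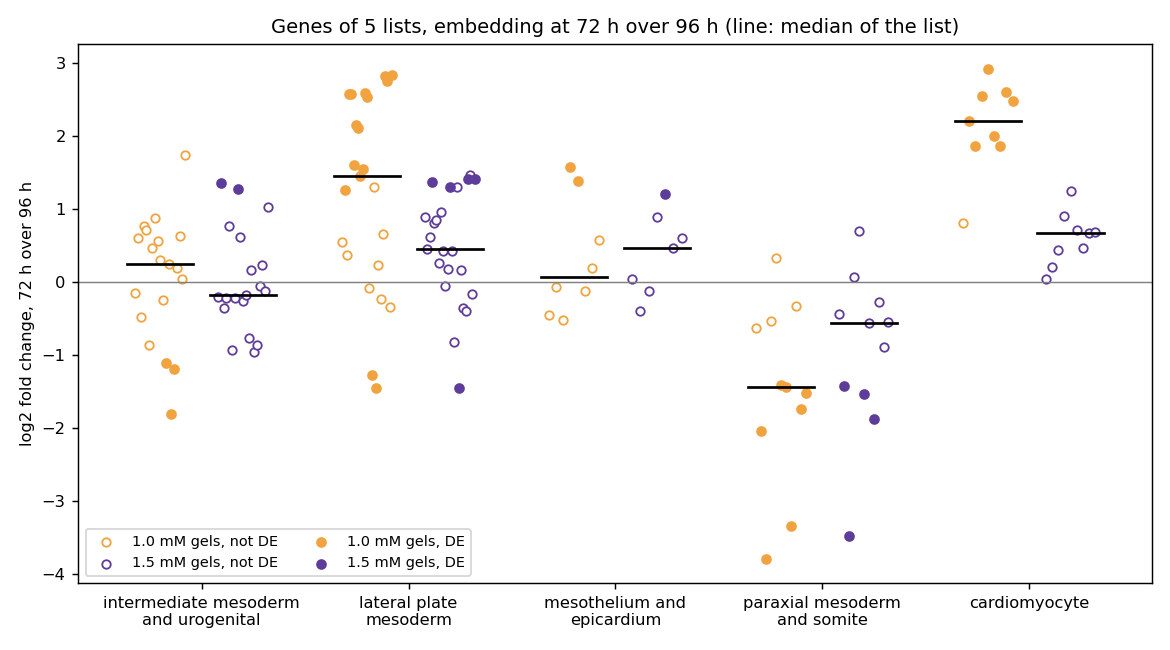
Log2 fold change, 72 h over 96 h, of the tested genes of 5 lists along the horizontal axis, none of them among the 9 genes, in 1.0 mM gels (orange) and 1.5 mM gels (purple); filled points were DE and black lines are the medians of the lists. The lateral plate list has a median of 1.45 in 1.0 mM gels and of 0.45 in 1.5 mM gels, the intermediate mesoderm list of 0.25 and -0.17, and the paraxial list of -1.43 and -0.55.

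Genes of other cell types moved with the same groups. Of 9 cardiomyocyte genes tested, 8 were DE higher at 72 h in 1.0 mM gels, among them the sarcomere and myosin genes *Myl7* at 2.92, *Tnnt2* at 2.61, *Myl4* at 2.55 and *Ttn* at 2.48. Among all genes tested in 1.0 mM gels, 2.61% were DE higher. At 1.5 mM 0 of the 9 cardiomyocyte genes were DE in edgeR, against 3.18% of all genes, and 0 in DESeq2 or limma-voom. In edgeR 1 had an unadjusted p below 0.05, *Myl7* standing at 1.24. Of all 15683 genes tested there, 4116 had an unadjusted p of 0.0216 or lower in edgeR. The summed level of the 10 listed genes was 175 to 464 CPM at 72 h and 32.3 to 107 CPM at 96 h in 1.0 mM gels, and 111 to 291 CPM and 69.5 to 155 CPM in 1.5 mM gels, with none at 0 in every library. Their part in the differences of *Foxf1*, *Tcf21* and *Tbx3* was not tested. Of the naive pluripotency genes, with which *Tbx3* is also expressed in stem cells, 5 of 8 tested were DE in 1.0 mM gels and 4 of 7 in 1.5 mM gels, all lower at 72 h. *Tbx3* was higher at 72 h in 1.0 mM gels. The shares of all genes tested that were DE lower were 1.69% and 1.57%. *Dppa5a* stood at -2.71 and -2.48, *Zfp42* at -2.50 and -2.26, and *Prdm14*, which was not tested in 1.5 mM gels, at -2.89. *Prdm14* was close to the floor, with means of 0.0692 and 0.546 CPM at 72 h and 96 h in 1.0 mM gels. *Nanog* and *Esrrb* were DE in both gels as well. The part of the naive pluripotency genes in the *Tbx3* difference was not tested.

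For the remaining lists of cell types, the share of all genes tested that was DE was 4.30% at 1.0 mM and 3.18% at 1.5 mM. Of 9 endothelial genes 0 were DE in 1.0 mM gels in edgeR, with 1 called by DESeq2 and 0 by limma-voom. An unadjusted p below 0.05 in edgeR was given for 6, of which 2 were higher at 72 h. The share of all genes below that p was not counted there. Within 1.5 mM gels 2 were DE, *Emcn* at -1.68 and *Sox18* at -1.25. Of 12 neural genes 2 were DE higher and 1 lower at 72 h in 1.0 mM gels. The last was *Olig2* at -5.23, close to the floor, with at most 0.0418 CPM at 72 h and a mean of 0.702 CPM at 96 h. In 1.5 mM gels 0 neural genes were DE, with 2 at an unadjusted p below 0.05 and 0 called by DESeq2 or limma-voom. Of all 15683 genes tested in those gels, 4116 had an unadjusted p of 0.0216 or lower in edgeR. Of 7 tail bud genes *T*, the Brachyury gene, was DE higher at 72 h in both gels, at 1.17 and 1.42, and *Nkx1-2* was DE lower in 1.0 mM gels at -2.29.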

How the data were processed

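Poly-A RNA from 12 pools of embedded gastruloids was sequenced by the authors as stranded, paired-end libraries with an RNA integrity number above 9. The authors trimmed reads with cutadapt 4.4, used STAR 2.7.10b for alignment to mm10 (modified Ensembl gene models) and deposited a table of raw, unnormalized counts for each gene; the methods give STAR as their source, the name of the table HTSeq, and the strand setting is not stated. The authors deposited FPKM values computed with Cufflinks 2.2.1.3 and a strand-specific library setting. Their own DESeq2 comparisons were deposited as log2 fold changes and adjusted p-values and were not used. Gene positions are those of mm10, checked against the GENCODE annotation of that build.

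Groups were taken from the sample labels. All 36 mitochondrial genes were left out. Counts were fitted over the whole table in R 4.3.3 with edgeR 4.0.16 (TMM, filterByExpr at min.count 10 and min.total.count 15, glmQLFit and glmQLFTest) with Benjamini-Hochberg adjustment. The pairwise comparisons used 2 groups each; time across gels, gel across times and their interaction used all 12 libraries. SE is the absolute log2 fold change divided by the square root of F. The fits were tested on simulated data with a single low dispersion for all genes, no replicate effect, and changes planted only in well-counted genes. That test does not cover the spread between these replicates or genes with as few counts as *Pax8* and *Wt1*. Alternatives used limma 3.58.1, DESeq2 1.42.0, log2(1 + FPKM), other filters and normalizations, a replicate block and each library left out. Depth was 23011791 to 27609422 counts, and the spread between replicates, which measures the variation of pools of one cell line, limits the precision.

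The 9 genes and the gene lists were chosen with earlier results of these data known. All 9 were named for embedding time, and those with an unadjusted p below 0.05 for gels and the interaction. From each list the 4 DE genes with the largest absolute log2 fold change across both gels were named; others, where a list had 5 or fewer DE genes in a direction, were named after their values were seen. Some listed genes are in the counts and medians but are not reported here by name. Likeness of profiles is the root-mean-square difference of centred log2 CPM, with a prior count of 2, and was given for genes DE in a time comparison with a mean of at least 1 CPM, which left out *Pax8* and *Wt1*. *Tarid*, a listed antisense neighbour of *Tcf21*, was not analysed here.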

Additional observations from a re-analysis of the deposited data

How the results depend on the processing

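Between embedding times in 1.0 mM gels, where 5 of the genes were DE, limma-trend on log2(1 + FPKM) called 2, and leaving out one library called 3 to 6, the fewest without replicate 3 at 96 h. In 1.5 mM gels, where 2 were DE, the FPKM fit called 0 and leaving out one library 1 or 2, while upper quartile normalization, no filter on low counts and all 12 libraries in 1 fit each called 3, adding *Pax8*. Across both gels, where 4 were DE, the FPKM fit called 2, and so did a filter of at least 1 CPM in 3 libraries, which removes *Pax8* and *Wt1*. Leaving out one library gave 3 or 4. Of all genes, the FPKM fit called 63 in 1.0 mM gels, 54 in 1.5 mM gels and 123 across both, where edgeR called 678, 498 and 763. Between gels at 96 h, where 0 were DE, DESeq2, the fit with no filter on low counts, and leaving out one library (0 or 1) gave at most 1, always *Tbx3*. With no filter on low counts 1 was also called across both embedding times and 1 for the interaction. Directions turned for values near 0 only: with a library left out, *Osr1* in 1.0 mM gels ran from -0.543 to 0.0507 (without replicate 2 at 96 h) and *Pax2* from -0.423 to 0.0442 (without replicate 3 at 96 h). Across both gels *Pax2* ran from -0.0257 (without replicate 3 of the 96 h, 1.5 mM group) to 0.332. *Tbx3* within 1.5 mM gels ran from -0.272 to 0.346 (without replicate 2 at 96 h) and was 0.00835 in limma-voom. The causes were not tested.

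Labels number the replicates 1 to 3 in every group. Deviations from the group means correlated at 0.0364 to 0.313 between the 18 pairs of libraries with the same number, 13 of them above 0.1, with a median of 0.156 against -0.0764 for the 36 pairs with different numbers, 1 of them above 0.1. Since not every pair was above 0.1, the numbers were not taken to pair the samples. All 18 correlations were positive, however, and 9 of the 12 libraries correlated best with their own number in every other group. The fits without a block do not account for a shared effect of replicate number. With replicate number as a block, 6 of the genes were DE between times in 1.0 mM gels (*Foxf1* added, at 1.00), 3 in 1.5 mM gels (*Pax8* added, at an adjusted p of 0.0293 in edgeR) and 4 across both. Between gels at 96 h the block called 51 of all genes in place of 0, among them *Tbx3*, the 1 called of the 9, at an adjusted p of 1.14e-06 in edgeR. DESeq2 at its default filtering level, added after seeing the data, called 4, 2 and 4 between times and 0 between gels. *Pax2*, *Pax8* and *Wt1*, at 2 to 30 counts per library, are limited by depth.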
